A study of Mus musculus with 4 samples.

Results

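The collagen gene family comprised 44 of the 25239 gene symbols in the count tables, taken as every mouse symbol that consists of Col, a type number, the letter a and a chain number. By the structure of the encoded chains, 11 of the 44 genes were fibrillar, 9 belonged to the basement membrane zone and 24 to other types. They were followed through 4 RNA-Seq libraries of lung tumor-infiltrating cells labelled as CD4+ T cells, of which 2 carried the label WT and 2 the label CD4/ALK4-KO. The question of the study was how the loss of ALK4, a type I receptor for activin-A encoded by *Acvr1b*, changes gene expression in these cells. CD4/ALK4-KO mice carry CD4CreERT2+/- and Acvr1b fl/fl, so that tamoxifen induces Cre recombinase under the control of the *Cd4* promoter. Both genotypes were on the C57BL/6 background and were inoculated intravenously with LLC-OVA, ovalbumin-expressing Lewis lung carcinoma cells. The study used male mice aged 8 to 10 weeks, and per the labels the tumors were excised on days 18 to 22, whereas the methods give a slightly earlier range of days for CD4/ALK4-KO mice. Tamoxifen was given to the CD4/ALK4-KO mice daily up to the day of inoculation, and whether the WT mice received it is not given in the sources used here. The labels call the 2 libraries of a genotype biological replicates, without saying whether animals were pooled.

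Collagens are secreted proteins in which alpha chains wind around each other into a triple helix. The fibrillar types, chiefly I, III and V, assemble into the banded fibrils that give lung interstitium its tensile strength, while type IV forms the sheet-like network of basement membranes beneath epithelium and endothelium. Type VI builds beaded microfilaments around cells, type VIII is made by vascular and mesenchymal cells, and types XII, XIV and XVI attach to other fibrils. Fibroblasts and other mesenchymal cells are the main source of most of these chains in the lung, and T cells are not a known major source.

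The total counts per library ranged from 11823908 to 13943237. *Acvr1b*, the targeted gene, did not separate the labels: 426 and 342 counts were found under WT and 322 and 445 under CD4/ALK4-KO. The fitted difference was 0.16 on the log2 scale (SE 0.24, adjusted p = 0.66, edgeR). The counts cover the whole gene and do not show whether the floxed part was deleted, so groups are named here by their labels alone. *Cd4* was at 55.4 and 48.0 CPM (counts scaled to a common, TMM-normalised library size) in the WT libraries and at 307 and 327 CPM in the CD4/ALK4-KO libraries. The 16 T cell marker genes all rose, with a median log2 fold change of 2.38 and a summed level of 510 to 554 CPM in WT against 2760 to 2837 CPM in CD4/ALK4-KO. The defining T cell markers were therefore present in all 4 libraries but differed in level between the genotypes. Summed macrophage markers exceeded the T cell sum in both genotypes, at 6272 to 7143 CPM in WT and 5797 to 6079 CPM in CD4/ALK4-KO. In WT the summed fibroblast (3482 to 4180 CPM) and epithelial (975 to 1005 CPM) markers did so too. The endothelial and B cell sums were lower than the T cell sum. Libraries labelled as CD4+ T cells thus held RNA with markers of other cell types, and their purity was not tested. Fold changes below are CD4/ALK4-KO over WT, and a gene is said to rise or fall where the Benjamini-Hochberg adjusted p of edgeR's quasi-likelihood test over 13919 genes was under 0.05.

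Collagen transcripts were present in all libraries and were lower in those labelled CD4/ALK4-KO. The 44 genes together took 0.594% and 0.545% of all counts in the WT libraries and 0.325% and 0.335% in the CD4/ALK4-KO libraries. On the CPM scale their sum was 5815 ± 272 in WT and 3239 ± 40.7 in CD4/ALK4-KO (mean ± SD, n = 2), 1.80-fold lower, and the libraries of both genotypes did not overlap. The fibrillar genes made up the bulk of the sum, with 4119 ± 214 CPM in WT and 2546 ± 85.9 CPM in CD4/ALK4-KO, 1.62-fold lower. The basement membrane genes summed to 591 ± 46.3 and 228 ± 13.3 CPM, 2.59-fold lower. The other types summed to 1105 ± 11.96 and 465 ± 58.5 CPM, 2.38-fold lower. With 2 libraries against 2 an exact two-sided permutation test of a single sum cannot go below p = 0.333, so these sums are given as values. Shares and CPM are relative to the rest of each library, in which T cell markers were higher in CD4/ALK4-KO. In bulk RNA, fewer collagen-producing cells, less collagen RNA per cell and more RNA from other cells cannot be told apart.

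Of the 44 genes, 29 had enough counts to be tested, and 12 of these fell, 2 rose and 15 did not pass the test. Over all 13919 genes tested, 15.4% fell and 17.4% rose. The 12 that fell were *Col3a1*, *Col5a1*, *Col5a3*, *Col4a1*, *Col4a2*, *Col7a1*, *Col18a1*, *Col6a1*, *Col6a2*, *Col6a3*, *Col8a1* and *Col16a1*. *Col6a5* and *Col11a2* rose with this normalisation (TMM) and had negative log2 fold changes, -1.06 and -0.73, when the libraries were scaled to the 4 genes of the T cell receptor complex. That scaling moved the median of all genes by -2.18 on the log2 scale and put 28 of the 29 collagen genes lower, together with 12803 of all genes against 48 higher, where the TMM normalisation gave 2140 lower and 2422 higher. All 12 falls were among the 19 collagen genes whose mean count was 100 or more. The median log2 fold change of the 29 genes was -0.33, beside -0.01 over all genes tested. Without a test, the libraries did not overlap in 16 collagen genes in the lower direction and 5 in the higher direction, where 34.0% and 32.7% of all genes did so. Of the 12 falls, 9 were called whichever library was left out, and the exceptions are named with their genes.

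**Figure D1:**
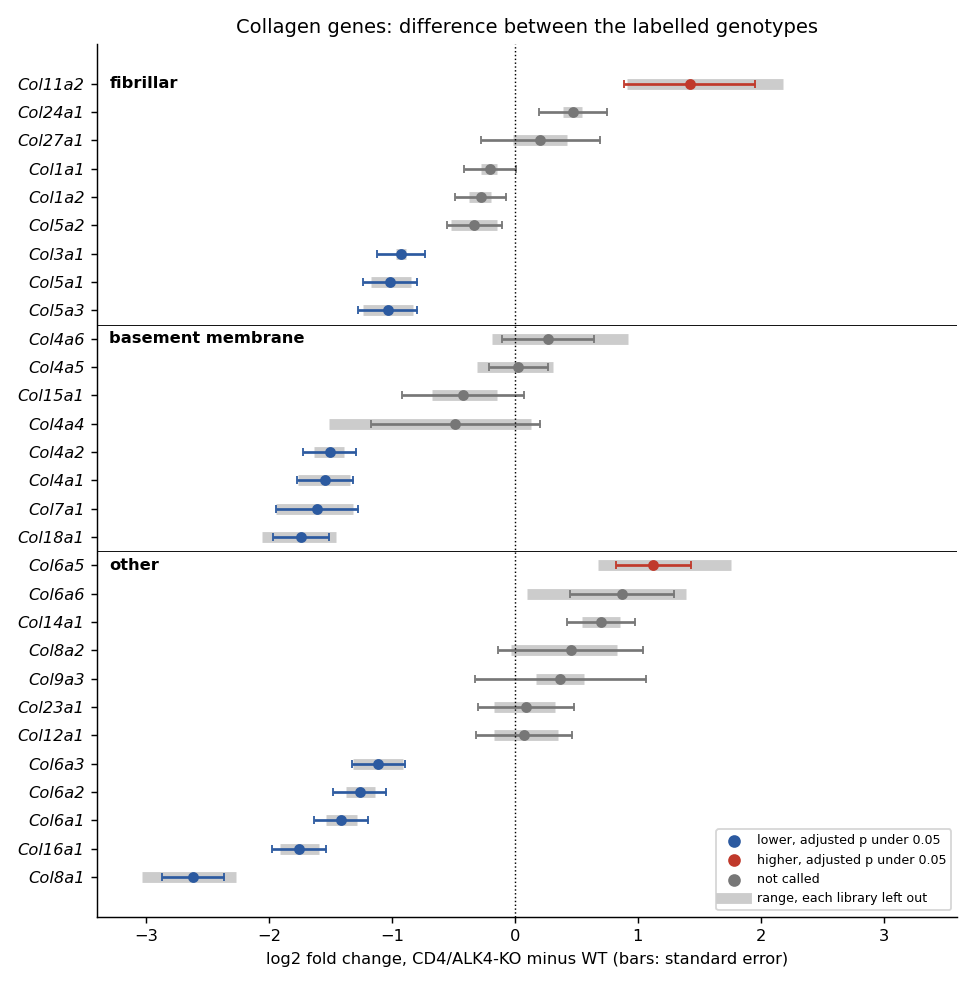
Log2 fold changes (CD4/ALK4-KO minus WT, x axis) of the 29 collagen genes tested, grouped by class on the y axis, with bars for the standard error and grey bands for the range of values over the fits that leave out 1 library. The genes split into a group between -2.62 and -0.93 that fell and a group around 0 that did not pass the test, with *Col11a2* and *Col6a5* above 1, which were below 0 when libraries were scaled to the T cell receptor complex.

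The fibrillar class was divided, since type III and 2 chains of type V fell while type I did not pass the test. *Col3a1*, the single chain of type III collagen, was the most abundant collagen transcript, at 2788 and 2668 CPM in the WT libraries and 1423 and 1444 CPM in the CD4/ALK4-KO libraries. Both CD4/ALK4-KO libraries lay far below both WT libraries, and the gene fell 1.90-fold (log2 fold change -0.93, SE 0.19, adjusted p = 7.9e-04). Without WT replicate 1 its log2 fold change was -0.90 with an adjusted p of 0.052. *Col1a2*, which encodes the alpha 2 chain of type I collagen, was at 779 and 688 CPM in WT and at 645 and 563 CPM in CD4/ALK4-KO. *Col1a1*, which encodes the alpha 1 chain, was at 216 and 198 CPM in WT and at 181 and 178 CPM in CD4/ALK4-KO. For both type I genes the libraries were ordered by genotype, but the gaps were small, with log2 fold changes of -0.28 (SE 0.21, adjusted p = 0.33) and -0.21 (SE 0.21, adjusted p = 0.50). These standard errors leave room for changes of either sign near 0, so the test does not show that type I was equal between genotypes.

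Type V collagen regulates the diameter of type I fibrils from within them. *Col5a1* was at 98.1 and 82.6 CPM in WT and at 40.2 and 49.2 CPM in CD4/ALK4-KO, and fell 2.02-fold (log2 fold change -1.02, SE 0.22, adjusted p = 0.0012). *Col5a3* was at 47.9 and 36.1 CPM in WT and at 20.1 and 20.9 CPM in CD4/ALK4-KO, and fell 2.05-fold (adjusted p = 0.0022). Without WT replicate 1 the log2 fold change was -0.89 (adjusted p = 0.058) for *Col5a1* and -0.83 (adjusted p = 0.13) for *Col5a3*. As for *Col3a1*, the direction and most of the size of the change remained while the call was lost, and over all genes that fit called 754 lower in place of 2140. *Col5a2*, the most abundant type V chain, was at 326 and 279 CPM in WT and at 275 and 206 CPM in CD4/ALK4-KO. Its groups did not overlap only by a narrow margin, and its log2 fold change of -0.33 (SE 0.23, adjusted p = 0.28) passed the test when CD4/ALK4-KO replicate 1 was left out (-0.52, adjusted p = 0.024).

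The minor fibrillar genes were much scarcer, and their difference from type III was not tested. *Col11a2*, whose chain is best known from cartilage, had 27 and 11 counts in the WT libraries and 39 and 52 in the CD4/ALK4-KO libraries. It rose 2.68-fold (log2 fold change 1.42, SE 0.53, adjusted p = 0.045), was at -0.73 when scaled to the T cell receptor complex, and lost the call with DESeq2's Wald test (1.44, adjusted p = 0.083). It also lost the call without WT replicate 1 (2.18, adjusted p = 0.073), WT replicate 2 (0.92, adjusted p = 0.44) or CD4/ALK4-KO replicate 2 (1.22, adjusted p = 0.082), with a positive value each time. *Col24a1* lay at 10.9 and 12.2 CPM in WT and at 16.6 and 15.5 CPM in CD4/ALK4-KO (log2 fold change 0.47, adjusted p = 0.20). *Col27a1* was between 2.44 and 3.24 CPM in all 4 libraries. *Col2a1*, the main chain of cartilage collagen, had 6 counts in each WT library and 0 in each CD4/ALK4-KO library, and *Col11a1* had 1 and 0 in the same way. Both were too low to be tested, and a count of 0 allows up to 3 counts in a library of this depth.

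**Figure D2:**
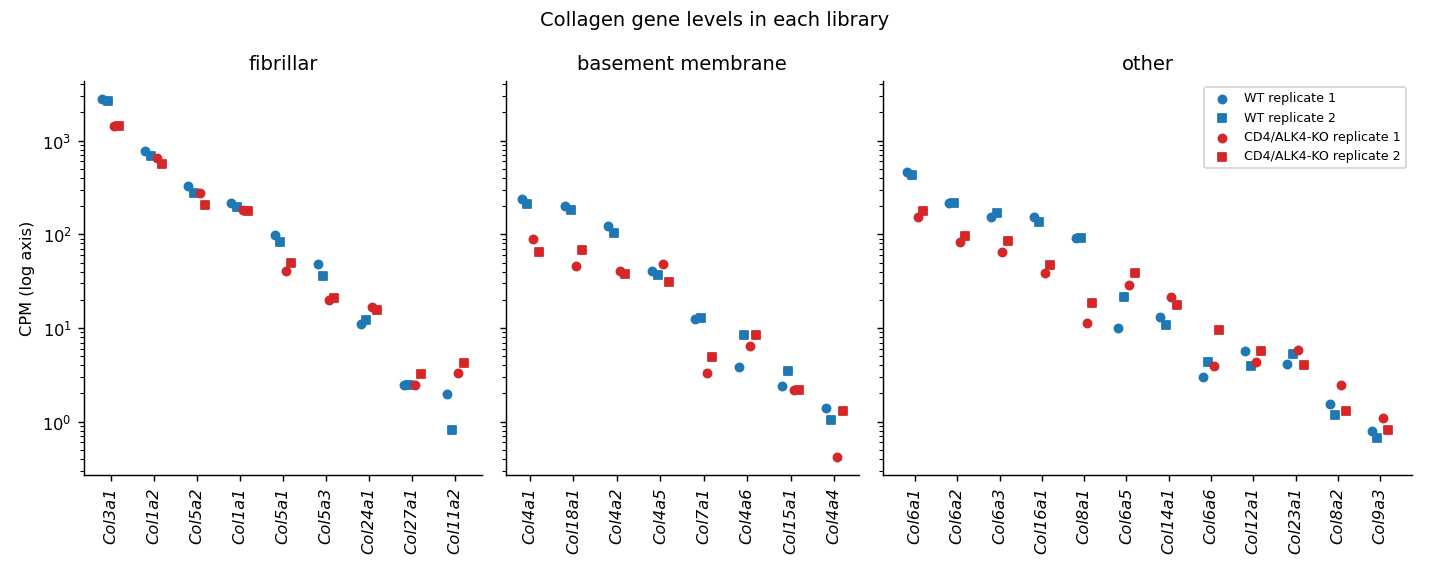
Level of each tested collagen gene in CPM (log axis) in each library, by class, with WT in blue, CD4/ALK4-KO in red, circles for replicate 1 and squares for replicate 2. *Col3a1* stands above all others at 1423 to 2788 CPM, the red points of *Col8a1* lie furthest below the blue ones, and those of *Col1a1*, *Col1a2* and *Col5a2* lie close to them.

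In the basement membrane class the paired alpha 1 and alpha 2 chains of type IV fell together, while the alpha 5 chain did not. *Col4a1* was at 240 and 212 CPM in WT and at 89.6 and 65.1 CPM in CD4/ALK4-KO, 2.92-fold lower (log2 fold change -1.55, SE 0.23, adjusted p = 1.7e-05). *Col4a2* was at 122 and 103 CPM in WT and at 41.0 and 37.9 CPM in CD4/ALK4-KO, 2.85-fold lower (log2 fold change -1.51, SE 0.22, adjusted p = 1.6e-05). These are the chains of the ubiquitous type IV network, and their fold changes differed by less than 1 standard error. *Col4a5*, a chain of the more restricted networks, was at 41.1 and 36.4 CPM in WT and at 48.3 and 30.6 CPM in CD4/ALK4-KO. Its CD4/ALK4-KO libraries lay on either side of the WT libraries (log2 fold change 0.03, SE 0.24, adjusted p = 0.95). *Col4a6* was at 3.87 and 8.35 CPM in WT and at 6.38 and 8.34 CPM in CD4/ALK4-KO, also overlapping. *Col4a4* had 54 counts in all and *Col4a3* had 25, of which the latter was not tested.

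*Col18a1* and *Col15a1* encode the multiplexin chains of basement membranes, whose C-terminal fragments include endostatin. *Col18a1* was at 201 and 181 CPM in WT and at 46.0 and 68.0 CPM in CD4/ALK4-KO, and fell 3.34-fold (log2 fold change -1.74, SE 0.23, adjusted p = 5.4e-06). *Col7a1*, which encodes the chain of anchoring fibrils, was at 12.3 and 12.9 CPM in WT and at 3.28 and 4.94 CPM in CD4/ALK4-KO, and fell 3.06-fold (log2 fold change -1.61, SE 0.34, adjusted p = 8.2e-04). Each of the 4 basement membrane calls held with any single library left out. *Col15a1*, with 133 counts in all, was at 2.41 and 3.47 CPM in WT and at 2.18 and 2.19 CPM in CD4/ALK4-KO (log2 fold change -0.43, SE 0.50, adjusted p = 0.55). Of the 8 genes tested in this class 4 fell and the others did not pass the test, and their median log2 fold change was -0.998. In the fibrillar class 3 of 9 fell and 1 rose, with a median of -0.28, and in the other types 5 of 12 fell and 1 rose, with a median of 0.08. Beside these class counts stand 15.4% lower and 17.4% higher over all 13919 genes tested, so the shares that rose were below that of all genes.

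Among the other types, the largest fall of the family was that of *Col8a1*, the alpha 1 chain of the short-chain type VIII collagen. It was at 91.9 and 90.6 CPM in WT and at 11.2 and 18.5 CPM in CD4/ALK4-KO, with raw counts of 1259, 1226, 133 and 228. The fall was 6.15-fold (log2 fold change -2.62, SE 0.25, adjusted p = 9.3e-08) and lay between -3.03 and -2.27 with a library left out. *Col8a2*, its partner chain, was at 1.18 to 2.44 CPM in the 4 libraries, with overlapping groups. *Col16a1*, a fibril-associated collagen with interrupted triple helices, was at 155 and 135 CPM in WT and at 38.7 and 47.1 CPM in CD4/ALK4-KO, and fell 3.38-fold (log2 fold change -1.76, SE 0.22, adjusted p = 2.7e-06). *Col14a1*, another fibril-associated collagen, was at 13.2 and 10.6 CPM in WT and at 21.3 and 17.5 CPM in CD4/ALK4-KO. Its log2 fold change of 0.70 (SE 0.28, adjusted p = 0.055) passed the test without CD4/ALK4-KO replicate 2 (adjusted p = 0.013) and was -1.49 on the T cell receptor scale. *Col12a1* was at 3.92 to 5.67 CPM with overlapping groups (log2 fold change 0.07, adjusted p = 0.91).

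The classical chains of type VI collagen fell. Of the later-described chains, alpha 5 rose with TMM normalisation and alpha 6 did not pass the test. Differences between the chains were not tested. *Col6a1* was at 458 and 434 CPM in WT and at 154 and 179 CPM in CD4/ALK4-KO, and fell 2.67-fold (log2 fold change -1.42, SE 0.22, adjusted p = 3.6e-05). *Col6a2* was at 215 and 217 CPM in WT and at 83.6 and 96.0 CPM in CD4/ALK4-KO, and fell 2.40-fold (log2 fold change -1.26, SE 0.21, adjusted p = 9.5e-05). *Col6a3* was at 154 and 171 CPM in WT and at 65.5 and 84.7 CPM in CD4/ALK4-KO, and fell 2.16-fold (log2 fold change -1.11, SE 0.22, adjusted p = 4.4e-04). These classical chains assemble into one heterotrimer, and all of them fell by more than 2-fold. *Col6a5* was at 9.997 and 21.2 CPM in WT and at 28.9 and 39.1 CPM in CD4/ALK4-KO. It rose 2.18-fold (log2 fold change 1.12, SE 0.30, adjusted p = 0.0074) and was at -1.06 on the T cell receptor scale, above the all-gene shift of -2.18. Its WT libraries lay far apart from each other, and without WT replicate 1 the log2 fold change was 0.67 (adjusted p = 0.27). *Col6a6* was at 2.99 and 4.36 CPM in WT and at 3.95 and 9.48 CPM in CD4/ALK4-KO (log2 fold change 0.87, SE 0.43, adjusted p = 0.12), and passed the test as higher without CD4/ALK4-KO replicate 1 (1.40, adjusted p = 0.0017) and as lower on the T cell receptor scale (-1.29, adjusted p = 0.0042). *Col6a4* had 1 count in each WT library and 8 and 4 in the CD4/ALK4-KO libraries and was not tested.

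The remaining genes were scarce. *Col23a1*, a transmembrane collagen, was at 4.05 to 5.88 CPM and *Col9a3* at 0.665 to 1.09 CPM, without passing the test. In all, 15 genes were not tested, none of which had more than 25 counts summed over the 4 libraries. *Col22a1* and *Col26a1* had no count in any library. *Col2a1*, *Col4a3*, *Col6a4*, *Col10a1*, *Col17a1*, *Col20a1* and *Col28a1* had 10 or more counts in total, and *Col9a1*, *Col9a2*, *Col11a1*, *Col13a1*, *Col19a1* and *Col25a1* had fewer. At this depth differences in these genes were not detectable.

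Levels were compared between genes as CPM per kilobase of the longest protein-coding transcript. The annotation used for counting is not given, so ranks and ratios between genes depend on this choice of length. For *Col1a2* the length used was 5348 bases, where all its annotated exons together cover 12426 bases. For *Col1a1* these lengths were 5930 and 6563 bases. On that scale *Col3a1* ranked 1, *Col1a2* ranked 2 and *Col6a1* ranked 3 in both genotypes, with means of 490, 137 and 109 CPM per kb in WT and 258, 113 and 40.7 CPM per kb in CD4/ALK4-KO. *Col8a1* moved from rank 10 to rank 17, *Col4a5* from rank 15 to rank 12 and *Col6a5* from rank 17 to rank 14. Neighbours in the order that did not differ beyond their spread in WT included *Col6a2* with *Col5a2*, and *Col4a1* with *Col18a1*, whose ranges over the WT libraries overlapped. As a share of collagen counts, *Col1a2* took 13.0% and 12.2% in WT and 19.7% and 17.6% in CD4/ALK4-KO, while *Col3a1* took 46.4% and 47.4% in WT and 43.6% and 45.0% in CD4/ALK4-KO. As a class, the fibrillar genes took 71.1% and 70.6% of collagen counts in WT and 79.8% and 77.4% in CD4/ALK4-KO. The type I chains therefore made up a larger part of the collagen counts in the CD4/ALK4-KO libraries, and type III a slightly smaller one.

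Ratios between chains within a library do not depend on how libraries are scaled to each other. The ratio of *Col3a1* to *Col1a1*, per kb, was 13.8 and 14.4 in WT and 8.40 and 8.65 in CD4/ALK4-KO. The ratio of *Col1a2* to *Col1a1* was 4.01 and 3.86 in WT and 3.96 and 3.51 in CD4/ALK4-KO, with overlapping groups, and that of *Col4a2* to *Col4a1* was 0.521 and 0.497 against 0.469 and 0.597, also overlapping. Chains that assemble into one molecule thus kept overlapping ratios for types I and IV, whereas type III was lower relative to type I. For type V the ratio of *Col5a1* to *Col5a2* went from 0.237 and 0.233 to 0.115 and 0.188. For type VI the ratios of *Col6a2* to *Col6a1* were 0.412 and 0.441 in WT and 0.477 and 0.472 in CD4/ALK4-KO, and those of *Col6a3* to *Col6a1* were 0.137 and 0.159 in WT and 0.172 and 0.192 in CD4/ALK4-KO, both without overlap. The ratio of *Col4a5* to *Col4a1* was 0.173 in both WT libraries and 0.546 and 0.476 in the CD4/ALK4-KO libraries. The ratio of *Col6a5* to *Col6a3* was 0.0704 and 0.135 in WT and 0.480 and 0.502 in CD4/ALK4-KO, and that of *Col8a1* to *Col1a2* was 0.123 and 0.138 in WT and 0.0181 and 0.0343 in CD4/ALK4-KO. These within-library ratios were not tested and are given as values.

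**Figure D3:**
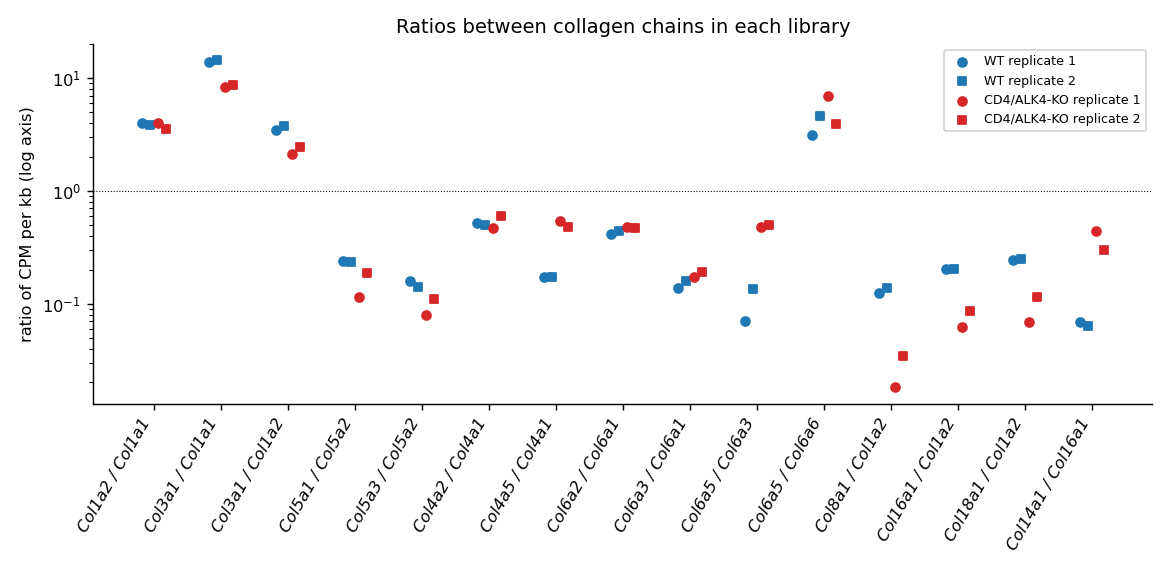
Ratios of CPM per kb between pairs of collagen chains (log axis) in each library, with WT in blue and CD4/ALK4-KO in red, circles for replicate 1 and squares for replicate 2. The ratios of *Col1a2* to *Col1a1* and of *Col4a2* to *Col4a1* overlap between genotypes, while *Col8a1* over *Col1a2* goes from 0.123 and 0.138 to 0.0181 and 0.0343.

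Several of these genes lie next to each other in the mouse genome (GENCODE M21, GRCm38). *Col4a1* (chromosome 8, 11198423 to 11312826, minus strand) and *Col4a2* (11312805 to 11449287, plus strand) stand head to head and overlap by 22 bases, and both fell by similar amounts. *Col4a6* and *Col4a5* on chromosome X also stand head to head, separated by 1308 bases, and neither passed the test. *Col3a1* (chromosome 1, 45311538 to 45349706, plus strand) and *Col5a2* (45374321 to 45503282, minus strand) lie tail to tail 24614 bases apart, and the former fell while the latter did not pass the test. *Col6a2* and *Col6a1* on chromosome 10, 85161 bases apart on one strand, fell together. *Col6a6*, *Col6a5* and *Col6a4* lie in a row on chromosome 9 at gaps of 27917 and 28810 bases, and the fitted values of the tested pair, *Col6a6* and *Col6a5*, were both above 0 with TMM normalisation and below 0 on the T cell receptor scale. *Col8a1* is on chromosome 16 (57624258 to 57754737, minus strand), *Col16a1* on chromosome 4 (130047840 to 130099283, plus strand) and *Col18a1* on chromosome 10 (77052178 to 77166548, minus strand). The 22 shared bases of *Col4a1* and *Col4a2* and a 234-base exonic overlap of *Col9a3* with the opposite-strand gene *Tcfl5* were the exonic overlaps with another protein-coding gene among the tested members. The library kit did not mark strand, so reads within such overlaps cannot be told apart.

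The 250 bases upstream of the annotated start are shown for 4 genes whose windows hold no annotated exon, chosen to set the largest fall (*Col8a1*) and the most abundant collagen (*Col3a1*) beside 2 type VI chains of opposite direction with TMM normalisation (*Col6a3* and *Col6a5*). The sequences are from RefSeq on GRCm38.p6, read 5′ to 3′ along the gene. Capitals mark the letters of the GC box, GGGCGG, on either strand. They also mark the letters TATAAA, known as the TATA box, and no window shown held the third motif searched, CCAAT. The windows are chr16:57754738-57754987 on the minus strand for *Col8a1*, chr1:45311288-45311537 on the plus strand for *Col3a1*, chr1:90843972-90844221 on the minus strand for *Col6a3* and chr9:105960644-105960893 on the minus strand for *Col6a5*.
Col8a1: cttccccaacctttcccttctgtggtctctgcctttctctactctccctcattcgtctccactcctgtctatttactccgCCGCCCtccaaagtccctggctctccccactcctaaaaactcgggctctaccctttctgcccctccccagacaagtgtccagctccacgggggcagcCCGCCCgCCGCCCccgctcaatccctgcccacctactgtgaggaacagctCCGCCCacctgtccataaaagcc
Col3a1: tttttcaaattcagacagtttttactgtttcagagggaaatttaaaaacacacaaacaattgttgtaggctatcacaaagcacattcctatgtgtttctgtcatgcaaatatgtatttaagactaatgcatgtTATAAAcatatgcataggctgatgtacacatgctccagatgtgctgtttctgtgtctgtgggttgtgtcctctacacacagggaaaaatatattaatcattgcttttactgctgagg
Col6a3: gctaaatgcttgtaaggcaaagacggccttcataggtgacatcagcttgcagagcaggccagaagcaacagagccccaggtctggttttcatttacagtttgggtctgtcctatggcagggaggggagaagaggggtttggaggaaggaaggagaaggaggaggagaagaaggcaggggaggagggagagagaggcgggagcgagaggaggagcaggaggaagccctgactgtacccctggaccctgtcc
Col6a5: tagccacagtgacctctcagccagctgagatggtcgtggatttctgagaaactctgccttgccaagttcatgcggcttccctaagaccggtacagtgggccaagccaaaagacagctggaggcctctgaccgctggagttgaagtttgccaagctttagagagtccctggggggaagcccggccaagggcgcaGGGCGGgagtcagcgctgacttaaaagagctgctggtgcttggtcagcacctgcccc

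*Col8a1* held 4 GC boxes on the other strand, at positions -170, -73, -66 and -23 from the start, and *Col6a5* held 1 at -57. *Col3a1* held no GC box and 1 TATA box at -117, and the *Col6a3* window held none of the motifs searched. On both strands of all 32851 mouse promoter windows of this length, GGGCGG was found in 32.7% of windows, the letters CCAAT in 33.8% and those of the TATA box in 12.4%. Of the 35 collagen genes with a window, 21 held the GC box, 13 the CCAAT motif and 5 the TATA box. All 12 genes that fell had a window, and 8 of them held the GC box, as did both genes that rose with TMM normalisation and 7 of the 10 uncalled genes with a window. CCAAT was in 6 of the 12 genes that fell, in 0 of the 2 that rose and in 2 of the 10 uncalled ones. These letters are a description of the windows and identify no site in use.

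Genes that make, process and bind collagen were examined by role. Of 18 tested genes of collagen synthesis and folding, 13 fell and 1 rose, where 15.4% of all genes tested fell and 17.4% rose. The median log2 fold change of the 18 genes was -0.97. *Serpinh1*, which encodes the collagen chaperone HSP47, was at 891 and 840 CPM in WT and at 414 and 433 CPM in CD4/ALK4-KO (log2 fold change -1.03, SE 0.21, adjusted p = 6.2e-04). *P4ha1*, a catalytic subunit of prolyl 4-hydroxylase, fell from 477 and 516 CPM to 278 and 217 CPM (log2 fold change -1.01, adjusted p = 0.0013). *P4hb*, the other subunit, which is also a general disulfide isomerase, was at 1201 and 1273 CPM in WT and at 1030 and 1009 CPM in CD4/ALK4-KO (log2 fold change -0.28, adjusted p = 0.30). *Mia3*, which helps load procollagen into transport carriers, rose with TMM normalisation (log2 fold change 0.95, adjusted p = 0.0016) and was at -1.23 on the T cell receptor scale. Without WT replicate 1 the adjusted p of *Mia3* was 0.11. Those that fell included the catalytic prolyl 4-hydroxylase subunits *P4ha1*, *P4ha2* and *P4ha3* and the lysyl hydroxylases *Plod1*, *Plod2* and *Plod3*, which modify collagen chains before they fold. Some of the falls in this list lost their call with a library left out, with values still below 0. *P4ha2* (-1.05), *Crtap* (-0.80) and *P3h1* (-0.85) did so without WT replicate 1, and *Plod2* (-0.89) without WT replicate 2. *P3h4* did so without WT replicate 1 (-0.76) or WT replicate 2 (-0.82). *Plod3* did so without CD4/ALK4-KO replicate 1 (-0.36), WT replicate 1 (-0.50) or WT replicate 2 (-0.75). The same held for *Colgalt1* (-0.34, -0.44 and -0.75 in that order).

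Of 12 tested genes of procollagen processing and cross-linking 6 fell and the others did not pass the test, with a median of -0.69. Over all genes tested 15.4% fell. Among the 6, *Adamts14* lost its call without CD4/ALK4-KO replicate 1 (-0.35), WT replicate 1 (-0.67) or WT replicate 2 (-0.89). *Pcolce2* lost its call without WT replicate 1 (-1.08). *Pcolce*, an enhancer of procollagen C-proteinase, was at 264 and 182 CPM in WT and at 65.5 and 114 CPM in CD4/ALK4-KO (log2 fold change -1.31, adjusted p = 5.8e-04). *Bmp1*, the C-proteinase itself, was at 155 and 140 CPM in WT and at 56.9 and 72.8 CPM in CD4/ALK4-KO (log2 fold change -1.19, adjusted p = 2.2e-04). *Lox*, the founding lysyl oxidase, was at 89.97 and 64.0 CPM in WT and at 98.0 and 57.2 CPM in CD4/ALK4-KO, so that its groups overlapped (log2 fold change 0.01, SE 0.25, adjusted p = 0.98). Of 8 tested collagen-binding proteoglycan genes 4 fell, 50.0% beside 15.4% of all genes, and the others did not pass the test, with a median of -0.77. Among the 4, *Kera* lost its call without WT replicate 2 (-1.99). *Dcn* was at 2017 and 2794 CPM in WT and at 1744 and 1233 CPM in CD4/ALK4-KO (log2 fold change -0.69, adjusted p = 0.018), a call that was lost without WT replicate 2 (-0.45, adjusted p = 0.40). *Lum* fell from 539 and 450 CPM to 181 and 142 CPM (log2 fold change -1.62, adjusted p = 1.1e-05). *Bgn* was at 277 and 192 CPM in WT and at 269 and 298 CPM in CD4/ALK4-KO, with overlapping groups.

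Of the 8 tested receptors for collagen, 2 fell and 2 rose with TMM normalisation, 25.0% each way beside 15.4% and 17.4% of all genes. *Ddr2*, a receptor tyrosine kinase for fibrillar collagen, was at 209 and 234 CPM in WT and at 107 and 117 CPM in CD4/ALK4-KO (log2 fold change -0.98, adjusted p = 0.0012). *Ddr1*, its epithelial relative, was at -0.59 on the log2 scale (adjusted p = 0.044), which, among the fits that leave out a library, kept the call only without CD4/ALK4-KO replicate 1. *Itga1* and *Itga2*, the alpha chains of the collagen-binding integrins that activated T cells can carry, had log2 fold changes of 0.68 (adjusted p = 0.043) and 1.16 (adjusted p = 0.0057), and -1.52 and -1.02 on the T cell receptor scale. Without WT replicate 1 their adjusted p were 0.55 and 0.22, and without WT replicate 2 that of *Itga1* was 0.063. *Itgb1*, their shared beta chain, was at -0.48 (adjusted p = 0.068), and *Lair1*, an inhibitory collagen receptor of leukocytes, was at 0.11 (adjusted p = 0.74). The 46 tested genes of these roles together gave 25 that fell, 3 that rose and a median of -0.69.

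**Figure D4:**
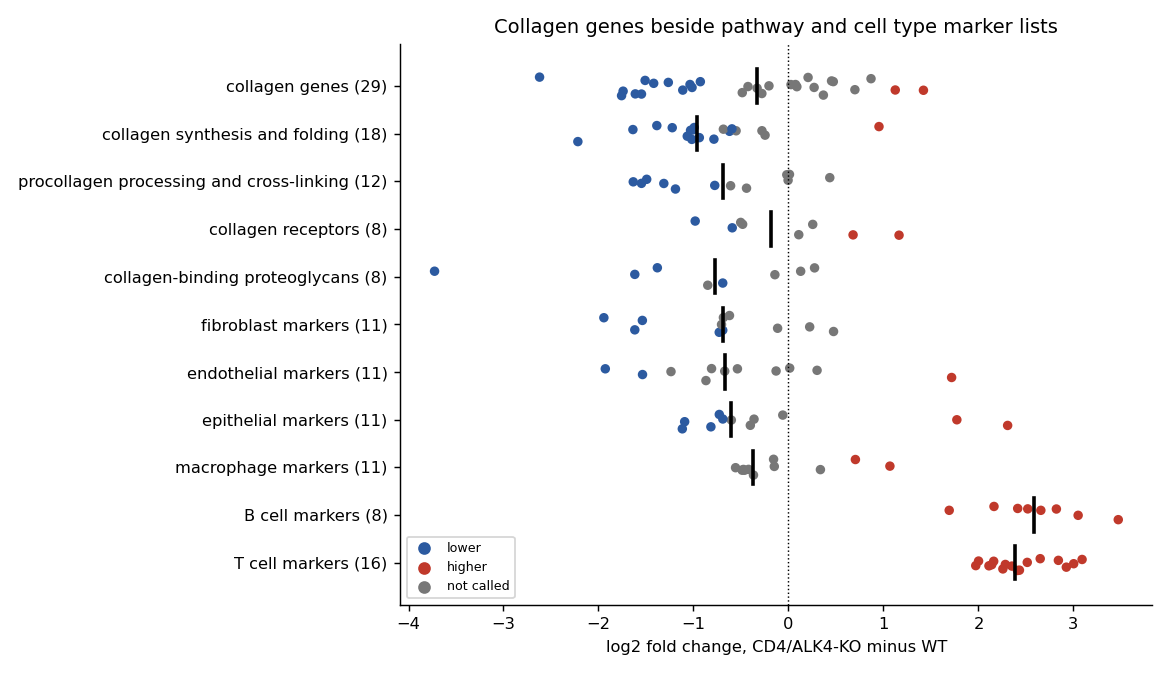
Log2 fold change (CD4/ALK4-KO minus WT, x axis) of each tested gene in the collagen family, in the lists of collagen-related roles and in lists of cell type markers, with the number tested in brackets and a black bar at the median. T cell and B cell markers lie at medians of 2.38 and 2.59, while the collagen genes spread from -2.62 to 1.42 and the fibroblast markers have a median of -0.69. Scaling to the T cell receptor complex shifts every list downwards.

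Markers of other cell types were set beside the collagen genes, where 15.4% of all genes tested fell and 17.4% rose. The summed fibroblast and epithelial markers were lower in both CD4/ALK4-KO libraries, as were the summed macrophage markers by a smaller margin. The summed endothelial and B cell markers were higher. Of 11 tested fibroblast markers 5 fell (*Pdgfrb*, *Dcn*, *Lum*, *Dpt* and *Acta2*) and the others did not pass the test, with a median log2 fold change of -0.69, and their summed level was 3482 to 4180 CPM in WT and 1971 to 2695 CPM in CD4/ALK4-KO. *Pdgfrb* lost its call without CD4/ALK4-KO replicate 1 (-0.40, adjusted p = 0.27), WT replicate 1 (-0.78, adjusted p = 0.20) or WT replicate 2 (-0.69, adjusted p = 0.24), and *Dcn* as given above. *Pdgfra*, another defining fibroblast marker, was at 351 and 484 CPM in WT and at 588 and 387 CPM in CD4/ALK4-KO, with overlapping groups. Epithelial markers gave 5 of 11 lower and 2 higher, with a median of -0.60. They summed to 975 to 1005 CPM in WT and 517 to 651 CPM in CD4/ALK4-KO. The 2 higher were *Epcam* and *Cdh1*, at 1.78 to 2.70 and 1.75 to 1.79 over the fits that leave out a library. Among the 5 lower, *Sftpc*, *Sftpa1* and *Scgb1a1* lost the call in some of those fits, with values still below 0. When scaled to the T cell receptor complex, *Epcam* had a value of 0.11 and *Cdh1* of -0.41. Endothelial markers gave 2 of 11 lower and 1 higher, shares near those of all genes, with a median of -0.67. Their sum was nevertheless higher in CD4/ALK4-KO, at 140 to 163 CPM against 88.8 to 103 CPM in WT, through *Pecam1*, which leukocytes also express (log2 fold change 1.72, and -0.48 on the T cell receptor scale). *Cldn5*, 1 of the 2 that fell, lost its call in 3 of the 4 fits that leave out a library, with adjusted p of 0.12 to 0.36. Of 11 macrophage markers 2 passed the test as higher, *Csf1r* and *Siglecf*, a share near that of all genes, and both lost the call in 3 of the 4 fits that leave out a library and had values of -1.46 and -1.10 when scaled to the T cell receptor complex. Macrophage markers had a median of -0.37 and summed to 6272 to 7143 CPM and 5797 to 6079 CPM. The 8 B cell markers all rose, from 60.1 to 71.4 CPM in sum to 232 to 437 CPM. None of these lists had a marker at 0 in both libraries of a genotype, and their part in the collagen values was not tested.

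Set against the summed fibroblast markers within each library, the collagen sum was 1.73 and 1.35 in WT and 1.21 and 1.63 in CD4/ALK4-KO. On this measure, chosen after the values were seen, the genotypes therefore overlapped. *Dcn*, at the levels given above, made up most of the fibroblast marker sum in every library, so ratios to that sum depend largely on 1 gene. The same ratio was lower in both CD4/ALK4-KO libraries, without overlap, for 8 of the 12 genes that fell, namely *Col4a1*, *Col4a2*, *Col7a1*, *Col18a1*, *Col6a1*, *Col6a2*, *Col8a1* and *Col16a1*. It was higher without overlap for 15 of the 29 tested collagen genes, namely both that rose and 13 that did not pass the test, among them *Col1a1*, *Col1a2* and *Col5a2*. Over all genes tested, 5.62% were lower in that way and 63.5% higher. *Col3a1*, *Col5a1*, *Col5a3* and *Col6a3* overlapped on that measure. *Col3a1* stood at 0.801 and 0.638 in WT and at 0.528 and 0.733 in CD4/ALK4-KO. *Col8a1* stood at 0.0264 and 0.0217 in WT and at 0.00415 and 0.00937 in CD4/ALK4-KO, which kept the groups apart. Against the summed epithelial markers the collagen sum was 5.98 and 5.77 in WT and 5.02 and 6.21 in CD4/ALK4-KO, again with overlap. Against the macrophage markers it was 0.958 and 0.787 in WT and 0.538 and 0.554 in CD4/ALK4-KO, without overlap. Against the endothelial markers, whose sum was raised through *Pecam1*, it was 67.6 and 54.4 in WT and 23.3 and 19.7 in CD4/ALK4-KO, also without overlap.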

How the data were processed

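Gene expression was measured in 4 RNA-Seq libraries, 2 per genotype, grouped by the sample labels. The authors made raw counts per gene symbol with HTSeq, in its intersection-nonempty mode, from single-end reads of 75 bp placed on mm10 by HISAT2, and deposited them without normalisation. Versions, annotation and strand option are not given in the sources used here. Counts were filtered with filterByExpr (13919 of 25239 genes), normalised with TMM and tested with the quasi-likelihood test of edgeR 4.0.16 in R 4.3.3, with genotype as the only term and Benjamini-Hochberg adjustment over all genes tested. Standard errors were derived from the F statistic as the size of the log2 fold change over the root of F. On simulated counts, the test over 13707 genes called 90.5% of 199 genes with a true log2 change of 2, and 31 genes without a change. That change was larger than those of the collagen genes that fell, other than *Col8a1*, so the share called does not describe them. Far fewer genes were changed there than were called in the data (2140 lower and 2422 higher). The members and lists were chosen with earlier results of these data known. Full statistics are given for the 5 genes with the highest mean count of each class and for members called against the majority, and in each role list for the 3 genes with the highest mean count and any called against the majority. Lengths and locations are from GENCODE M21 and upstream windows from RefSeq. Total counts per library were 11823908 to 13943237. Replicates differed by more than sampling noise (chi-square per degree of freedom 13.3 for WT and 24.0 for CD4/ALK4-KO). Alternatives were DESeq2 size factors, DESeq2 1.42.0 with its Wald test, scaling to 4 T cell receptor complex genes, no filter on low counts, the replicate number as a block, and each library left out in turn.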

Additional observations from a re-analysis of the deposited data

How the results depend on the processing

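The 12 falls kept their calls with DESeq2 size factors, DESeq2's Wald test, no filter on low counts and the replicate block. Scaled to the T cell receptor complex, 28 collagen genes were lower (8 fibrillar, 8 basement membrane and 12 other) and 0 higher. Of the genes of collagen-related roles, 46 were lower and 0 higher. Over all 13919 genes tested, 12803 were lower and 48 higher on that scale, so such counts are not particular to collagen. The median log2 fold change of the collagen genes was -2.52, beside -2.19 over all genes tested. On that scale the values were -2.17 for *Col4a5*, -1.92 for *Col4a6*, -1.72 for *Col24a1*, -1.96 for *Col27a1*, -0.73 for *Col11a2*, -1.06 for *Col6a5*, -1.49 for *Col14a1*, -1.29 for *Col6a6*, -2.09 for *Col12a1*, -2.11 for *Col23a1*, -1.74 for *Col8a2* and -1.80 for *Col9a3*, by construction, since all 4 scaling genes rose. Without a filter the median, then over 42 genes, was -0.41. DESeq2's Wald test and the replicate block each left 1 collagen gene higher, *Col6a5*, with *Col11a2* lost. The cause was not tested. With the block *Col4a5* was at -0.0057. The labels give same-numbered libraries of the genotypes nothing in common but the number. Deviations of same-numbered libraries had a correlation of -0.21. The block changed the calls over all genes from 2140 to 1444 lower and from 2422 to 1768 higher. The crossed pairing, added after seeing the data, gave 12 lower and 3 higher collagen genes. Over all genes it gave 3037 lower and 3118 higher. Whether libraries of the genotypes shared a batch was not tested. With each library left out in turn, the collagen genes that fell numbered 9 to 13 (fibrillar 0 to 4) and those that rose 0 to 3, genes of collagen-related roles 16 to 27 lower and 0 to 3 higher, and the median was -0.31 to -0.20. The lowest counts were those without WT replicate 1, where 754 of all genes were lower and 1103 higher. A single library left in a genotype is assumed there to vary like the other genotype. Values of *Col4a5* then ran from -0.31 to 0.31, of *Col4a6* from -0.19 to 0.92, of *Col4a4* from -1.51 to 0.13, of *Col27a1* from -0.0197 to 0.43, of *Col12a1* from -0.17 to 0.35, of *Col23a1* from -0.17 to 0.33 and of *Col8a2* from -0.0366 to 0.83.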
